A study of Homo sapiens with 6 samples.

Results

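The regions described here are CTCF loci that were listed in all 3 conditions and carried no listed cohesin. CTCF peaks of 3 libraries were joined into loci wherever whole peaks overlapped by at least 1 bp, on chromosomes 1 to 22 and X. A locus was called stable when all 3 CTCF lists held a peak in it. Members were the stable loci that overlapped no peak of any of the 3 SMC1 lists. The rule found 485 members among 4026 stable loci and 9720 CTCF loci in all.

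The data came from IMR90, fetal human lung fibroblasts from a public repository, profiled by CUT&Tag, in which an antibody directs a transposase to cut the DNA near its target. CTCF was profiled in control cells (p21 in the sample titles), in cells treated for 6 days with ICM (inflachromene, a small molecule that binds HMGB1 and HMGB2; p16) and in senescent cells (p34), and SMC1 in control (p16), ICM-treated (p16, with no days stated) and senescent cells (p34). The p34 titles name no treatment and were read as the high-passage senescent samples of the series design. All 6 titles carry the same label, I79, while the methods of the study name another isolate of these cells. There was 1 library per group and no replicate, so values are descriptions without a test, and for CTCF the treatment and the p number (21 against 16) cannot be told apart.

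CTCF is a zinc-finger protein that binds a long DNA motif and insulates neighbouring stretches of chromatin from each other. Cohesin, a ring that contains SMC1, is thought to extrude chromatin loops until it meets CTCF bound in the right orientation. CTCF and cohesin therefore often occupy the same positions, although each can be found without the other.

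Sequences were read for promoters only, as windows running from 250 bases before to 50 after a 5′ end in RefSeq (GRCh38.p14). Those shown belong to the 6 promoter members of protein-coding genes with the highest mean percentile in the CTCF lists, and to CEP162, the promoter member among those farthest from cohesin. Motif letters of CTCF were searched on both strands in 3 forms. The wider form was CC, 3 free bases, AG, 2 free bases and GGC. The narrower form fixed the first of the latter free bases as G, so that its matches are all matches of the wider one too. The shorter form was AGGGGGC, which can lie inside both. Bases in capitals match one of these forms, and each window is written in the direction of its gene. The windows are GPER1 (chr7:1086868-1087167, + strand), ZNF343 (chr20:2524473-2524772, − strand), BYSL (chr6:41921249-41921548, + strand), KDM3B (chr5:138352435-138352734, + strand), PLCB3 (chr11:64251280-64251579, + strand), TMEM260 (chr14:56579548-56579847, + strand) and CEP162 (chr6:84227594-84227893, − strand).
GPER1: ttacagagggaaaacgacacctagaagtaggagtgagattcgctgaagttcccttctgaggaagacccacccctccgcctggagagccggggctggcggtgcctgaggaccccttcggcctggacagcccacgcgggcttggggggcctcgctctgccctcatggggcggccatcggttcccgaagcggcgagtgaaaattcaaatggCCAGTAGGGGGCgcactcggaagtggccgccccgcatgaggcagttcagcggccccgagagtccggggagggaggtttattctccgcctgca
ZNF343: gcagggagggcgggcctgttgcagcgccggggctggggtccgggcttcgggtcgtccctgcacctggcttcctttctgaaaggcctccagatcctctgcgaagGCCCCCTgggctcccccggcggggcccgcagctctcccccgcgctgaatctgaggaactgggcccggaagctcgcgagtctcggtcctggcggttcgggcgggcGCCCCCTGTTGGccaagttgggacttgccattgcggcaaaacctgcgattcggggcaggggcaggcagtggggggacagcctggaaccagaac
BYSL: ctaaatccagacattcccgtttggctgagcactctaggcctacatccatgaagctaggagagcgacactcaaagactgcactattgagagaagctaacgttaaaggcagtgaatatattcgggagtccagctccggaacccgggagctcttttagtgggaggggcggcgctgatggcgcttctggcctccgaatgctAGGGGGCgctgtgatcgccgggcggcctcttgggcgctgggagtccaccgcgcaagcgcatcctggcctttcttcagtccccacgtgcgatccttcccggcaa
KDM3B: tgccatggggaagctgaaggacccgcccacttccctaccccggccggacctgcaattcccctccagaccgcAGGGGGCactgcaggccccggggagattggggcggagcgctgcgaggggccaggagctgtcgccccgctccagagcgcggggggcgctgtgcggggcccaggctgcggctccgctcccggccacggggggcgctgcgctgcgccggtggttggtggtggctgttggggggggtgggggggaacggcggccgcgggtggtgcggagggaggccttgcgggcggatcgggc
PLCB3: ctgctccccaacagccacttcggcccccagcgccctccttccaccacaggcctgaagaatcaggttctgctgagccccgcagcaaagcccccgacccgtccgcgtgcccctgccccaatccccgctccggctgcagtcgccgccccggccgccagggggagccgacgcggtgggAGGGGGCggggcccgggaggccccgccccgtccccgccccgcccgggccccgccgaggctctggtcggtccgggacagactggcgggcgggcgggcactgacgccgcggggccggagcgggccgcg
TMEM260: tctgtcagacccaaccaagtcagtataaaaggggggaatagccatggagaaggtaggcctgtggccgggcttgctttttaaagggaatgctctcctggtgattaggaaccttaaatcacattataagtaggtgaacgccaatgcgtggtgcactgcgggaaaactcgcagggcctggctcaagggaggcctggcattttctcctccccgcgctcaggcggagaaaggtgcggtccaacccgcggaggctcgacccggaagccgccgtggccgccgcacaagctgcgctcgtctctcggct
CEP162: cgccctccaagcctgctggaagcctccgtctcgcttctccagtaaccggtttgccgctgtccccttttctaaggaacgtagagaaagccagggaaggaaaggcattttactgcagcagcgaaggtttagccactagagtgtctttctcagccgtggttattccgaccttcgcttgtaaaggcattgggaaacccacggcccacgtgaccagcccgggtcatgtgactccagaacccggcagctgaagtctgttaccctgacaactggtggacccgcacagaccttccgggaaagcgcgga

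Positions are counted from the 5′ end, with negative numbers before it. In the window of GPER1, which encodes a membrane receptor for oestrogen, the match CCAGTAGGGGGC began at -42. The summits of the control, ICM and senescent CTCF peaks lay at -3, -3 and -2, so the 3 libraries placed the highest signal at 1 position, next to the match. In the window of ZNF343, a zinc-finger gene, the match GCCCCCTGTTGG read on the opposite strand began at -43. The shorter form, as GCCCCCT, also began at -147. The summits lay before the printed window, at -256, -282 and -298. The BYSL window (ribosome assembly) held AGGGGGC from -53, with summits at -219, -168 and -215. The KDM3B window (a histone demethylase) held it from -179, with summits at -128, -123 and -127. The PLCB3 window held it from -76, and there too the summits lay before the printed window, at -326, -289 and -350. None of the 3 forms occurred in the windows of TMEM260, with summits at -68, -73 and -226, and of CEP162, a gene of the centriole and cilium, with summits at -242, -242 and -234.

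Members made up 12.0% of the stable loci (485 of 4026, exact 95% interval 11.1 to 13.1). This share depended on the rule, being 19.99% with 100 bp windows at the summits and 5.48% with CTCF lists cut at their median signal, and without the control CTCF library there were 920 members. Among all 9720 CTCF loci, 29.0% had no SMC1 peak. The share without SMC1 was 48.1% (1798 of 3737) for loci of 1 CTCF list and 27.4% (537 of 1957) for loci of 2 lists. The share was thus lowest among the loci of all 3 lists. Of the other stable loci, 2459 (61.1%) overlapped SMC1 peaks of all 3 lists, and 356 overlapped SMC1 of the control and ICM lists alone. The remaining classes held 150 loci with SMC1 in control alone, 160 in ICM alone, 118 in senescent alone, 142 in control and senescent, and 156 in ICM and senescent. All intervals here cover counting over loci and not the variation between cultures.

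The strength of CTCF at a member was read as the total signal of its strongest peak, which is the coverage summed over the peak in the authors' units. The control list gave 14274 to 70598 with a median of 19089. The ICM list gave 20350 to 99391 (median 32985), and the senescent list 6302 to 36085 (median 12392). No common scale between the lists is established, so these values are compared only within a list. Each locus was therefore ranked by total signal among the 4026 stable loci of the same list, from 0 (lowest) to 100 (highest). This rank uses the same loci in each library, and it was added once the values were known.

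Members sat low among the stable loci of every list. Their median rank was 27.3 (24.6 to 30.7) in the control list, 27.5 (24.5 to 30.6) in the ICM list and 31.3 (28.6 to 35.2) in the senescent list. Stable loci with SMC1 in all 3 lists had medians of 59.9, 60.7 and 59.3 in the same order, and those with SMC1 in control and ICM only had 40.2, 37.4 and 41.1. Ranks of 50 or less were held by 359 members (74.0%) in the control list, by 375 (77.3%) in the ICM list and by 356 (73.4%) in the senescent list. All 3 ranks of a locus were 50 or less for 55.1% of members (267), against 22.0% of the loci with SMC1 in all 3 lists. For loci with SMC1 in control and ICM only the share was 43.0%. A rank above 90 was held by 2 members (0.412%) in each list. Ranking by the highest signal within the peak in place of its total gave members medians of 35.5, 33.9 and 37.4. Loci with SMC1 in all 3 lists had 58.0, 58.2 and 54.9 by that measure. Those with SMC1 in control and ICM only had 46.3, 47.3 and 51.5. Within the complete lists of all CTCF peaks, the members' median percentiles by total signal were 33.6 (control), 51.4 (ICM) and 61.2 (senescent). All stable loci had 55.9, 68.9 and 74.8 there. The members were chosen by peak calls in these same libraries, so their CTCF values are a description, and the p numbers of the CTCF and SMC1 control libraries differed.

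**Figure D1:**
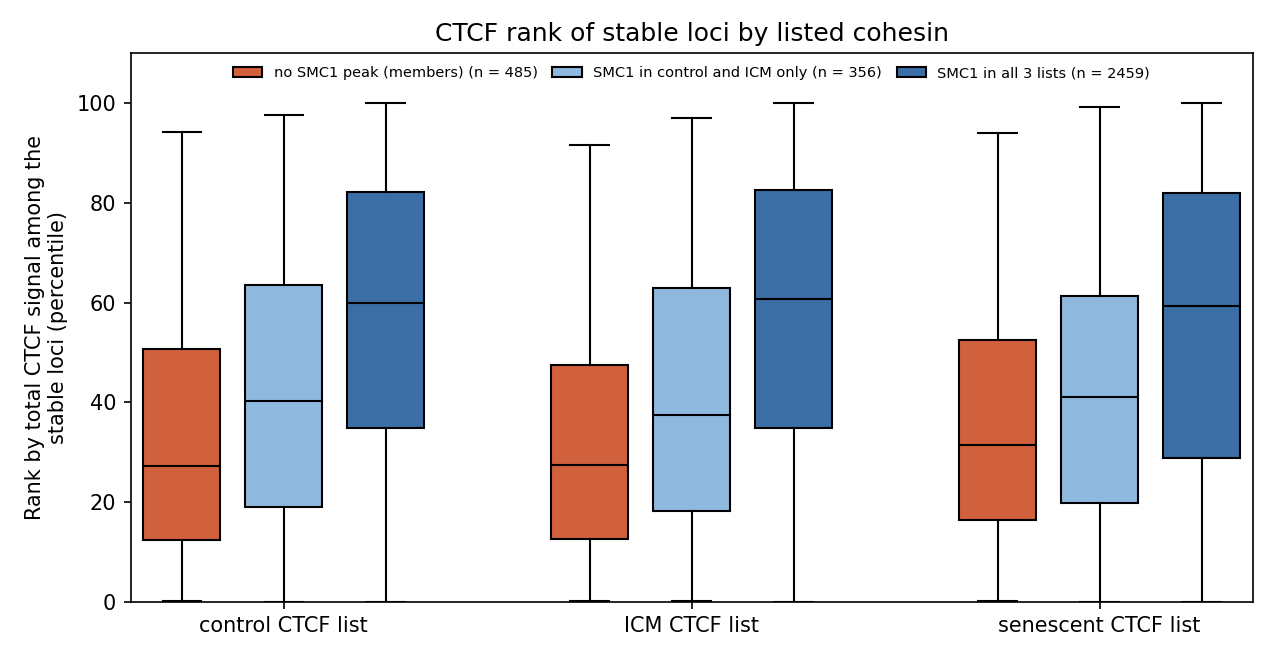
Rank of stable CTCF loci by total CTCF signal (percentile among 4026 loci, vertical axis) in the control, ICM and senescent CTCF lists, for loci without an SMC1 peak (members, n = 485), with SMC1 in control and ICM only (n = 356) and with SMC1 in all 3 lists (n = 2459). Boxes span the quartiles with the median as a line and whiskers reach the lowest and highest locus; member medians (27.3, 27.5, 31.3) lie under those of both other classes in each list.

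The share of loci without listed cohesin was lower in each higher class of CTCF strength. Stable loci were ordered by their mean rank over the 3 lists and divided into 5 classes of nearly equal size. Members were 23.2% (187 of 805) of the lowest class, and 16.9% (136), 12.4% (100) and 6.09% (49) of the next. In the highest class 1.61% (13 of 806, 0.862 to 2.74) were members. The 13 exceptions are CTCF loci of high signal with no SMC1 peak, and 3 members ranked above 80 in all 3 lists. Total signal is summed over the peak, and a wider locus has more bases that can overlap an SMC1 peak. Strength and membership thus both depend on width. The median width of the joined locus was 2114 bp for members and 2343 bp for loci with SMC1 in all 3 lists. For loci with SMC1 in control and ICM only it was 2060.5 bp. The part of width in this trend was not tested.

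**Figure D2:**
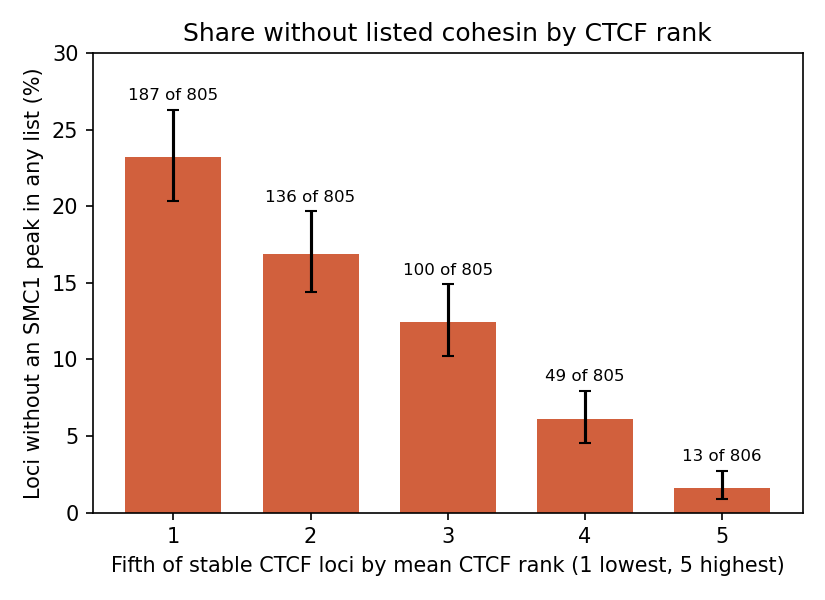
Share of stable CTCF loci without an SMC1 peak in any list (percent, vertical axis) by class of the mean CTCF rank over 3 lists (horizontal axis, 5 classes of nearly equal size, 1 lowest). Bars give the share, error bars the exact 95% binomial interval and labels the counts; the share goes from 23.2% in the lowest to 1.61% in the highest class.

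The member with the highest mean CTCF percentile over the 3 lists was chr19:12964579-12966295, which overlapped no gene and lay 4392 bp from the 5′ end of DAND5, an extracellular antagonist of Nodal signalling. Its total signal was 70598 in the control list, 87087 in the ICM list and 30512 in the senescent list, with ranks of 94.2, 88.1 and 89.6. It is high in all 3 libraries, and the nearest SMC1 peak was 11270 bp away. At the PLCB3 promoter (chr11:64250645-64253166; a phospholipase C of G-protein signalling) the ranks were 86.1, 89.3 and 83.2, and SMC1 was listed 2575 bp away. A member inside IGDCC4 (chr15:65399960-65402136) had ranks of 91.2, 82.5 and 81.2. These 3 members are the ones that ranked above 80 in every list.

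The next members by mean percentile lay in ADAMTS10, a gene for a secreted metalloprotease of the matrix (chr19:8577803-8581826), at the 5′ end of the lncRNA gene SPATA41 (chr15:100349290-100351155) and in TBC1D16 (chr17:80005218-80009847). Ranks were 87.8, 74.96 and 89.97 at ADAMTS10, 76.9, 87.2 and 92.3 at SPATA41, and 80.7, 73.6 and 93.9 at TBC1D16. At SPATA41 the nearest SMC1 peak was 9811 bp away in senescent cells, but 250543 bp away in control and 250588 bp in ICM-treated cells. The other 5 of these 6 members had an SMC1 peak of each list within 13950 bp. In the map of these members, a neighbouring CTCF position beside the DAND5, PLCB3 and IGDCC4 members was held by all 3 CTCF lists and carried SMC1 peaks of all 3 lists. Beside the ADAMTS10 and TBC1D16 members, SMC1 peaks of all 3 lists stood at CTCF peaks of fewer CTCF lists.

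**Figure D3:**
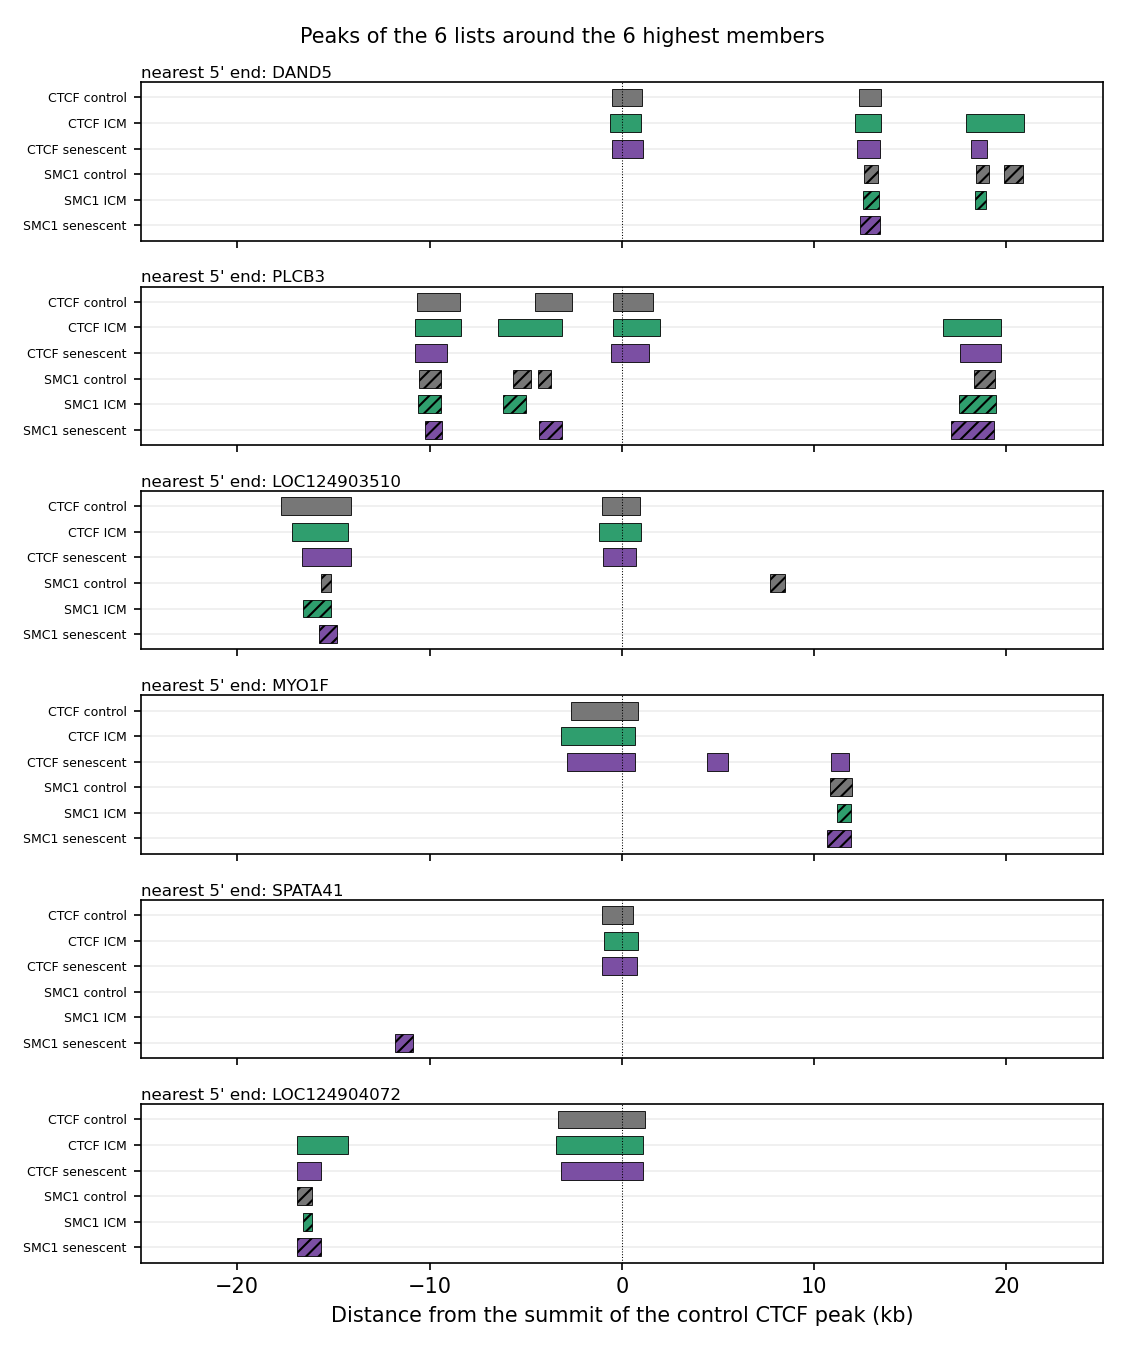
Peaks of the 6 lists within 25 kb of the 6 members with the highest mean CTCF percentiles, drawn to scale by distance from the summit of the control CTCF peak (kb, horizontal axis), 1 row per list; plain bars are CTCF and hatched bars SMC1 peaks, and each panel is named by the gene with the nearest 5′ end. In each panel 3 CTCF peaks stack at 0 with no SMC1 peak under them, and the nearest SMC1 peaks stand between 2575 and 12264 bp from the member.

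Among the protein-coding promoters, GPER1 (chr7:1085907-1089433) had ranks of 77.7, 79.9 and 85.3 and lay 70527 bp from the nearest SMC1 peak. ZNF343 (chr20:2523660-2526102) had ranks of 82.8, 80.3 and 74.7. The ranks of these promoters in control, ICM-treated and senescent cells lay within 10 points of each other. KDM3B (chr5:138350918-138354359) had 82.3, 90.2 and 56.1, and BYSL (chr6:41920705-41922721) had 76.9, 91.6 and 53.9. Both were lowest in senescent cells, and BYSL had the highest total signal of any member in ICM-treated cells (99391). TMEM260 (chr14:56579112-56580611) had ranks of 72.5, 78.7 and 62.4 and was 226862 bp from listed cohesin.

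At the other end, the member in ZNF518B (chr4:10460886-10462297) had ranks of 5.005, 1.29 and 0.546. The member upstream of TMEM200B (chr1:29123935-29125375) had 0.994, 2.29 and 1.69, and that in NOSIP (chr19:49569593-49571184) had 1.12, 0.447 and 8.92. These 3 were the lowest of the members by mean percentile over the 3 CTCF lists, although in the complete senescent list the NOSIP member stood at percentile 28.6. A rank of 20 or less in all 3 lists was held by 57 members (11.8%), against 3.01% of the loci with SMC1 in all 3 lists. For loci with SMC1 in control and ICM only the share was 6.46%.

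The 3 libraries placed the highest CTCF signal at nearly the same position in most members. The median width of the members' peaks was 1688 bp in the control list, 1885 bp in the ICM list and 1260 bp in the senescent list, and the joined locus spanned 2114 bp. A member held 1 peak of each list, except that 10 members held 2 senescent peaks. The 3 summits (midpoints of the region of highest signal) lay within 100 bp of each other in 373 members (76.9%, 72.9 to 80.6), with a median spread of 40 bp (32 to 52). For loci with SMC1 in control and ICM only 78.7% were within 100 bp, and for loci with SMC1 in all 3 lists 66.2%. The spread exceeded 1000 bp in 13 members, where the lists had their highest signal at separate positions of 1 joined locus.

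The order of the loci by CTCF signal was less alike between lists at members than at loci with listed cohesin. Across the 485 members, Spearman's rho of total signal was 0.610 between control and ICM, 0.354 between control and senescent, and 0.421 between ICM and senescent cells. For loci with SMC1 in all 3 lists rho was 0.845, 0.681 and 0.630. Loci with SMC1 in control and ICM only were nearer to the members, with 0.783, 0.545 and 0.473. These are descriptions across loci that share libraries, and members span a narrower range of signal in each list.

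Against control, the rank was higher by 20 points or more in senescent cells at 111 members (22.9%), where 19.8% of all stable loci moved this far up. It was lower by that much at 83 members (17.1%), against 19.9% of stable loci. For ICM, 59 members (12.2%) were higher, against 10.5%, and 67 (13.8%) were lower, against 11.0%. The members' shares were thus near those of all stable loci in both directions. The members' median change of rank was 4.02 (0.497 to 6.11) from control to senescent and -1.09 (-3.08 to 0.658) from control to ICM. For all stable loci it was 0.708 and -0.0745. The complete lists hold 4673, 6728 and 8577 peaks in the order control, ICM, senescent. Percentiles within them gave members larger median changes of 20.7 for senescent and 12.0 for ICM. All stable loci rose there too, by medians of 11.9 and 7.95, and loci with SMC1 in control and ICM only by 17.3 and 10.4. In lists cut to equal length by total signal, the members' changes became 4.70 and -1.49. Both comparisons share the control library.

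The members with the largest change were named by percentile within the complete lists. Inside ZCCHC2 (chr18:62583338-62586811) the rank was 1.503 in the control list, 48.6 in the ICM list and 83.5 in the senescent list. Inside NTRK3, the gene of a neurotrophin receptor (chr15:88245848-88247617), it was 2.43, 28.0 and 77.2. Both were lowest in control and highest in senescent cells. In SLC49A3 (chr4:683155-684810) the ranks were 0.224, 0.596 and 61.4, with control and ICM-treated cells both under 1. The intergenic member chr1:226124340-226126274 had 2.56, 13.5 and 65.0.

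Falls of this percentile towards senescent cells were largest at 4 other members, while by rank other members had larger changes, down to -68.8. The first lay near DYNC1H1, the heavy chain of cytoplasmic dynein (chr14:101960055-101963161), with ranks of 58.4, 24.5 and 1.44. At the promoter of ADAMTS7, a secreted metalloprotease (chr15:78809842-78812844), they were 59.4, 40.3 and 2.33. ICM-treated cells lay between the other 2 conditions at both. At the FHIP2A promoter (chr10:114820717-114823337) the ranks were 53.7, 71.1 and 1.35, with the ICM value the highest. In APBA2, a neuronal adaptor gene (chr15:29101748-29104685), they were 64.0, 39.0 and 4.87.

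For ICM, the member nearest to GPAM (chr10:112136591-112141104; an enzyme of triglyceride synthesis) had ranks of 2.04, 69.1 and 36.5. In NOS2, the inducible nitric oxide synthase (chr17:27755678-27761660), they were 7.63, 78.9 and 48.5, and near CMTM8 (chr3:32176803-32178531) they were 1.07, 56.9 and 41.4. In these 3 the ICM library was the highest and the control library the lowest. The largest falls were near CYP2R1, a vitamin D 25-hydroxylase (chr11:14904590-14906468; 55.7, 0.571 and 6.78), in LOC105378621 (chr1:30777894-30780779; 52.1, 1.63 and 45.4) and in SMARCD3, a chromatin remodeller subunit (chr7:151243699-151248109; 57.2, 3.23 and 11.7). Of these 14 members with the largest changes, 4 had summits more than 1000 bp apart between lists, namely those in ZCCHC2 (1918 bp), APBA2 (1478 bp), NOS2 (3325 bp) and SMARCD3 (1312 bp). Total signal is summed over the peak, and peak width also changed at some of these members. From control to ICM it went from 1172 to 4514 bp at GPAM, 2586 to 5983 bp at NOS2 and 4376 to 3152 bp at SMARCD3. At CMTM8 it was 1508 and 1538 bp. From control to senescent, width fell at all 4 members with the largest falls. It went from 3084 to 840 bp near DYNC1H1, 2513 to 822 bp at ADAMTS7, 1908 to 980 bp at FHIP2A and 2403 to 1370 bp in APBA2. Among the 4 rises it went up from 1464 to 2731 bp in ZCCHC2 and 1229 to 1508 bp at chr1:226124340-226126274. It went down from 1367 to 1026 bp in NTRK3 and 1574 to 1258 bp in SLC49A3. The part of width in the changes was not tested. These members were picked as extremes, and the lower end of their changes lay near the lowest signal of a list. Control totals were 14281 to 14687 at the rises to senescent and 14444 to 15507 at those to ICM, with 14246 the lowest of the list. Senescent totals at the falls to senescent were 6608 to 7290 (lowest 6267). ICM totals at the falls to ICM were 20715 to 22555 (lowest 20161). With 1 library per group none of these changes could be set against a spread between cultures.

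Distance to listed cohesin was measured from the edge of a member to the edge of the nearest SMC1 peak. The median was 19629 bp (16971 to 22660) to a peak of any list. To the control, ICM and senescent lists it was 30871, 28009 and 34651 bp. Within 1000 bp of an SMC1 peak lay 13 members (2.68%), within 5000 bp 94 (19.4%), within 10000 bp 164 (33.8%) and within 100000 bp 421 (86.8%). When peaks were reduced to 100 bp windows at their summits, which also changes the members, the median was 7288 bp. The nearest SMC1 peak came from the control list at 198 members, from the ICM list at 130 and from the senescent list at 157, with 19 ties counted under the first list. The CTCF loci of 1 or 2 lists without SMC1 had a median distance of 26090 bp (24209 to 28075).

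**Figure D4:**
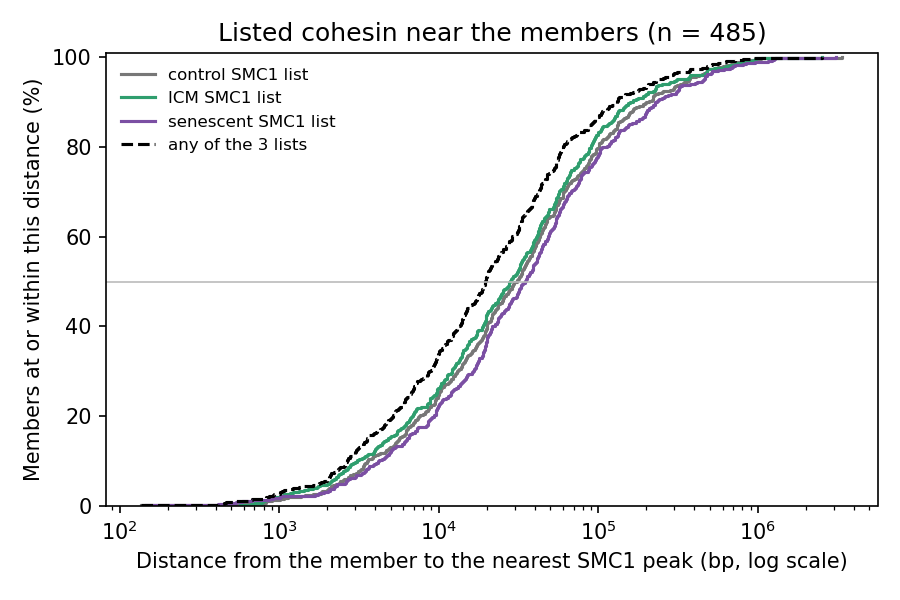
Cumulative share of the 485 members (percent, vertical axis) at or within a distance of the nearest SMC1 peak (bp, log scale, horizontal axis), for the control (grey), ICM (green) and senescent (purple) SMC1 lists and for any of them (dashed). The lines cross 50% at 30871, 28009 and 34651 bp, and at 19629 bp for any list.

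Members just inside the rule lay close to an SMC1 peak. The nearest was a member on chromosome 8 in TMEM276 and KIFC2, 137 bp from an SMC1 peak of the control list and 147 bp from one of the senescent list. One in GIT1 (chr17:29589633-29592574) was 415 bp from a senescent SMC1 peak, and one in CLK3 and EDC3 (chr15:74630113-74634327) was 449 bp from a control SMC1 peak. Just outside stood a locus in VASP (chr19:45522992-45524412) with 279 bp of overlap, and loci at chr7:25853795-25855414 and chr11:44537229-44539309 with 308 and 350 bp. All 3 loci just outside were excluded by the ICM SMC1 list alone.

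The farthest member lay in LRRC4C (chr11:40293310-40294654), a synaptic adhesion gene, 2504464 bp from the nearest SMC1 peak. Its ranks were 22.7, 43.1 and 14.3. The next were in NAV3 (chr12:77925371-77926368; 937781 bp), which encodes a neuron navigator protein, in GABRA5 (chr15:26890942-26892469; 808008 bp), a GABA receptor subunit, at the CEP162 promoter (chr6:84227108-84228467; 714098 bp) and at chr1:50332762-50334806 (633129 bp). At LRRC4C the 3 summits coincided, and at CEP162 they lay within 8 bp. The member on chromosome 1 had ranks of 74.7, 70.3 and 15.4, and the other 4 stayed under 50 in all 3 lists.

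The nearest stable CTCF locus was a median of 53027 bp away, the nearest stable locus with SMC1 in all 3 lists 124695 bp, and the nearest other member 627477 bp. From loci with SMC1 in all 3 lists the nearest member was a median of 861042 bp away. When members within 100000 bp were chained, 385 stood alone, 41 pairs formed and 6 groups had 3 members. The groups of 3 were around GPER1 on chromosome 7, around MACROD1, PLCB3 and KCNK4 on chromosome 11, in ARHGAP23 and SRCIN1 on chromosome 17, and on chromosome 19 around ANKRD24, from DHPS to MAST1, and from HPN to FXYD5. Within a group the ranks were not alike. In that of chromosome 11 the control ranks were 67.6 at MACROD1, 86.1 at PLCB3 and 3.58 at KCNK4.

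By chromosome, members made up 16.9% of stable loci on chromosome 19 (53 of 314, 12.9 to 21.5), against 12.0% over all chromosomes. The share was 17.3% on chromosome 7 (30 of 173, 12.0 to 23.8) and 19.1% on X (9 of 47, 9.15 to 33.3). On chromosome 1 they made up 7.89% (37 of 469, 5.62 to 10.7) and on chromosome 22 7.20% (9 of 125, 3.35 to 13.2). These chromosomes were picked for high or low shares, and differences between chromosomes were not tested. On chromosome 18, which has few stable loci, 5 of 20 were members (8.66 to 49.1%).

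The share at promoters was smaller among members than among stable loci with listed cohesin. A promoter was counted where the summit of the control CTCF peak lay within 1000 bp of a RefSeq 5′ end. Chromosome 8, with 10 members and 135 stable loci, has no 5′ ends in the table used and was not analysed for promoters. Of the other 475 members, 108 (22.7%, 19.04 to 26.8) were at promoters, against 39.9% (37.9 to 41.9) of loci with SMC1 in all 3 lists, 32.6% of those with SMC1 in control and ICM only and 35.6% of all stable loci that were no members. The nearest 5′ end was that of a protein-coding gene at 80 of the 108 and of an lncRNA gene at 28. The median distance to a 5′ end was 9318 bp for members and 7440 bp for loci with SMC1 in control and ICM only. For loci with SMC1 in all 3 lists it was 3486.5 bp. A gene of any kind was overlapped by 78.1% of members and a protein-coding gene by 65.2%, against 83.1% and 71.7%. The members' lower CTCF signal moved with this difference, and its part in the result was not tested.

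CTCF motif letters were searched in the promoter windows, on both strands. The wider, narrower and shorter letters are those defined beside the printed windows, and the shorter ones were chosen after the windows had been read. Of 66 members with a window that holds the control summit, 26 (39.4%, 27.6 to 52.2) had the wider letters and 21 (31.8%, 20.9 to 44.4) the narrower. In all 34961 promoters of the table the shares were 10.6% and 4.63%. For 68 loci with SMC1 in control and ICM only they were 42.6% (30.7 to 55.2) and 26.5% (16.5 to 38.6). For 512 loci with SMC1 in all 3 lists they were 33.8% (29.7 to 38.1) and 20.5% (17.1 to 24.3), so that the intervals of the classes overlapped. The shorter letters were in 33 of the 66 windows (interval 37.4 to 62.6%), in 41.2% (29.4 to 53.8) of those with SMC1 in control and ICM only, in 27.5% (23.7 to 31.6) of those with SMC1 in all 3 lists and in 14.4% of all promoters. These letters were picked from windows of members, so nothing is read from the order of these shares. The windows also differed from all promoters in their bases. Median GC content was 68% in the members' windows, 66.3% in those with SMC1 in all 3 lists and 58.7% in all promoters. Median counts of CG dinucleotides were 27.5, 26 and 14. The part of base content in the shares of motif letters was not tested. A match is a description of letters and not a binding site. A window covers 300 bases, while the joined loci of members spanned a median of 2114 bp. A window without these letters therefore does not show a locus without a CTCF motif.

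**Figure D5:**
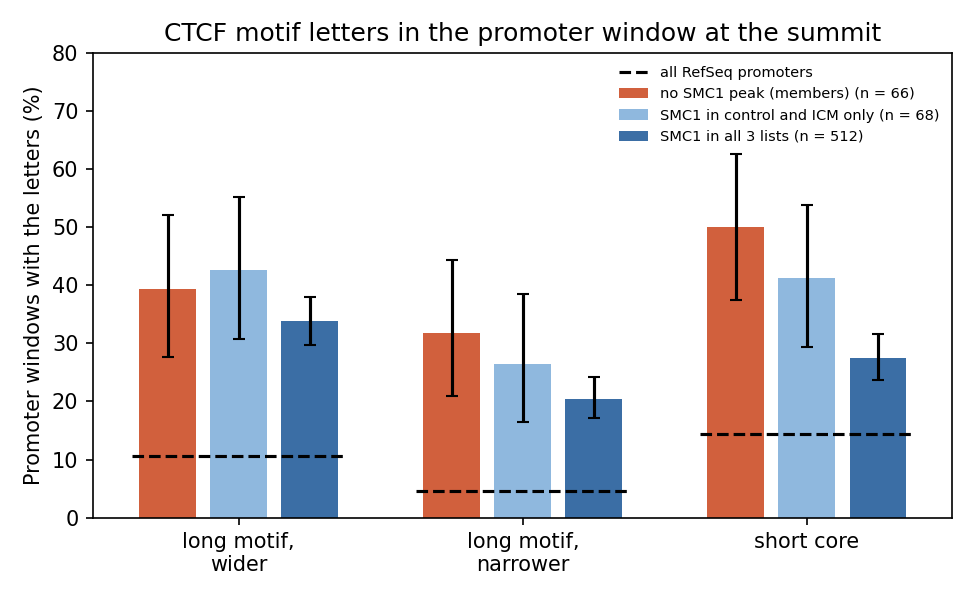
Share of promoter windows that hold the control CTCF summit and contain motif letters on either strand (percent, vertical axis), for the wider and narrower long forms and the short core, in members (n = 66), loci with SMC1 in control and ICM only (n = 68) and loci with SMC1 in all 3 lists (n = 512). Error bars are exact 95% binomial intervals and dashed lines the share in all RefSeq promoters. Each class is above the dashed line for the wider and narrower forms. The windows of the classes were chosen to hold a CTCF summit, and the short core was picked from windows of members.

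When all windows lying whole inside a locus were counted, 153 windows were in members and 52 of them (33.99%) held the wider letters, against 34.7% of 173 windows in loci with SMC1 in control and ICM only and 21.9% of 1678 windows in loci with SMC1 in all 3 lists. The 57 matches in members fell in 41 loci, at a median of 55.5 bp (43.5 to 103.5) from the control summit, 57.5 bp from the ICM summit and 53.5 bp from the senescent summit. In loci with SMC1 in all 3 lists the 411 matches were a median of 126.5 bp (104.5 to 167.5) from the control summit. This distance was not measured in loci with SMC1 in control and ICM only, so it is not shown to be particular to members. The GPER1 window printed above, with its match beginning at -42 and its control summit at -3 from the 5′ end, belongs to the members. Windows of 1 locus can overlap, so they are not independent.

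Of the lists of genes examined, the one of CTCF and cohesin proteins had 1 gene with a member inside it or within 10000 bp, among 16 genes. This gene was MAU2, which helps load cohesin onto DNA. Its member (chr19:19340677-19343912) had total signals of 19723, 46176 and 17278 in the control, ICM and senescent lists, with ranks of 30.3, 55.4 and 58.0, and the nearest SMC1 peak was 17035 bp away. Stable loci with or without SMC1 were at 6 of the 16 genes. No member was at the 21 imprinted genes found or at 18 genes of senescence arrest. None was at 17 genes of the secretory phenotype or at 20 of the fibroblast matrix. Stable loci were at 5, 7, 4 and 8 of these genes in that order. The 69 HOX and protocadherin genes searched had no member, with stable loci at 14. Protocadherin genes with a further letter in the symbol, such as PCDHGA1, were missed by this search. The member chr5:141325874-141327589 overlapped no gene and lay 4250 bp from the 5′ end of PCDHGA1.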

How the data were processed

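CUT&Tag peak lists of 6 IMR90 libraries, 1 per group, were analysed. Per the methods of the study, cells were lightly fixed, reads were aligned to hg38 by Bowtie 2 and calibrated by the E. coli reads of each library, and only CTCF peaks with a motif were considered. The CTCF lists used here hold somewhat more peaks than the motif-filtered sets of the study, so they are not those sets. The submitters' processing notes name Bowtie2 2.3.4.1, Picard 2.20.7, deepTools and SEACR 1.3. The authors called peaks per library in the stringent mode of SEACR, keeping the top 1%, without pooling. The deposited lists give each peak's total signal (coverage summed over the peak), highest signal and the region of the highest signal. Read depth per library is not given in the sources used here, so the depth behind each signal value is unknown, and weaker peaks under the threshold of each list are not seen.

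Coordinates were taken as GRCh38, since CTCF peaks on chromosome 17 ended at up to 83206712 bp. Groups came from the sample titles. Peaks were joined and distances measured in Python 3.11.15 with pandas 2.3.3, numpy 2.4.6 and scipy 1.17.1, and the steps were tested on simulated data. Percentiles were taken by total signal of the strongest peak of a locus in each list. Intervals of 95% are Clopper-Pearson (exact) for shares and order-statistic for medians, both over loci, which are not replicates. No test between conditions was made. Gene positions (59098 genes) and 34961 promoter windows came from RefSeq tables on GRCh38.p14.

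Regions were named by rule. By mean percentile over the CTCF lists these were the 6 highest members, the 6 highest protein-coding promoters and the 3 lowest. Added to these were the 5 farthest from SMC1, the 4 largest changes in each direction to senescent and 3 to ICM, the 3 nearest to SMC1, the 3 stable loci with the least SMC1 overlap, the largest groups within 100000 bp, and members at listed genes. Alternatives were summit windows of 100 bp, SMC1 peaks extended by 1000 bp, lists of equal length, the CTCF lists cut at the median signal, other promoter definitions, ranking by highest signal and leaving out each library. The members, gene lists and motif letters were chosen with earlier results of these data known.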

Additional observations from a re-analysis of the deposited data

How the results depend on the processing

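The number of members was 485 and between 536 and 920 when 1 library was left out. Leaving out a library relaxes the rule, so larger numbers were built in, as was a larger share without an SMC1 library. The 920 arose without the control CTCF library, which has the shortest CTCF list. Their share of stable loci (12.0%) ranged from 12.3 to 16.8% over these omissions, with 16.8% without the control CTCF library, 15.8% without control SMC1, 16.02% without ICM SMC1 and 15.0% without senescent SMC1. The promoter share (22.7%) ranged from 17.6 to 27.3% and the median distance to SMC1 (19629 bp) from 18483 to 21913 bp. With 100 bp windows at the summits, members were 19.99% of stable loci, 28.4% of them were at promoters, the median distance was 7288 bp and the median percentiles in the complete lists were 41.3 in control, 58.9 in ICM and 66.9 in senescent cells (33.6, 51.4 and 61.2 in the main setting), with a senescent minus control difference of 15.5 (20.7 in the main setting). With the CTCF lists cut at their median signal there were 105 members, 5.48% of stable loci, with a promoter share of 28.8%, percentiles of 38.8 in control and 57.3 in senescent cells and a difference of 14.8. In lists of equal length by total signal, the percentiles were 44.4, 43.3 and 51.0, the senescent minus control difference was 4.70 and the ICM minus control difference went from 12.0 to -1.49 (-3.66 to 1.35). Ranking by highest signal gave 42.2, 55.1 and 55.9 and a senescent difference of 11.5. Ranks among stable loci, chosen after the data were seen, gave 27.3, 27.5 and 31.3 with differences of 4.02 and -1.09 (-3.08 to 0.658). Both ICM values changed sign with intervals that include 0, so the sign of the ICM difference is not settled. Counting promoters within 5000 bp gave 38.5% and protein-coding genes only 18.1%. The ICM and senescent summits, also chosen after the data were seen, gave 23.6% and 22.9%. Extending SMC1 peaks by 1000 bp left 472 members and moved no result beyond its interval.

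No paired analysis was possible because each group has 1 library and the titles carry no replicate numbers. A missing SMC1 peak means none in the top 1% list of that library, and cohesin below that threshold is not seen. Loci at the lower limit of a CTCF list can enter or leave the class with depth, which is unknown. Peaks of control CTCF and control SMC1 came from cells with different p numbers (21 and 16), which cannot be told apart from other differences between the libraries.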
